A study of Mus musculus with 14 samples.

Results

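Collagen chains enter the endoplasmic reticulum (ER) as they are made, and 39 genes of the machinery that receives, folds, hydroxylates and exports them were described here. They were chosen by name, as rows of the gene count table whose Ensembl identifier maps to a listed symbol, and all 39 were found among the 52636 genes of the table. By role they were 6 ER chaperones, 3 DnaJ cochaperones, 5 disulfide isomerases, 3 alpha subunits of prolyl 4-hydroxylase, 5 prolyl 3-hydroxylases and partners, 6 collagen chaperones and FK506-binding proteins, 1 procollagen trimming enhancer, 2 translocon subunits, 3 genes of export and retrieval and 5 transcription factors. All 39 passed the filter on low counts, so no member was lost to it.

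RNA was sequenced from cells sorted by flow cytometry out of the dermis of the wound bed, 5 days after injury, from male C57/BL6 mice aged 7 weeks. The deposited libraries form 2 sets, with 2 libraries in each of 7 groups. The new set held AdipoqTraced, whose column headers read GFP, CD26 and Adipocyte. CD26 is the surface protein made from Dpp4, and Adipoq is the adiponectin gene of fat cells. The reanalysed set held CD29, DN, AP_CD9High and AP_CD9Low, which the titles call young and mark as libraries of an earlier series. The column headers give CD29 as CD29-high, DN as CD29-low, AP_CD9High as CD9-positive and AP_CD9Low as CD9-negative, where CD29 is the integrin made from Itgb1 and CD9 is a tetraspanin. The sources used here do not give alleles, the tracing construct, sort gates or the number of animals behind a library, nor what AP and DN stand for. No group occurs in both sets, so set and group cannot be told apart across them, and every test below stays within a set. Nothing in the labels ties the libraries of a group to different animals or cultures, so the spread behind each p-value may be technical.

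Hspa5, Hsp90b1 and Hyou1 are the general ER chaperones, Calr and Canx hold glycoproteins while they fold, and the disulfide isomerases form and shuffle disulfide bonds. Collagen needs more than this. Prolyl 4-hydroxylase, made of P4hb and an alpha subunit (P4ha1, P4ha2 or P4ha3), hydroxylates the prolines that keep the triple helix stable at body temperature. A complex of P3h1, Crtap and the isomerase Ppib adds the rarer 3-hydroxyproline and aids chain folding, Serpinh1 (HSP47) and Fkbp10 (FKBP65) attend the folded helix, and Mia3 (TANGO1) loads procollagen for export. When unfolded protein accumulates, the factors Xbp1, Atf4 and Ddit3 and the ER-anchored CREB3 family raise many of these genes, and dermal fibroblasts that lay down wound collagen are known to run this machinery at a high level.

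Many ER chaperone genes carry the ER stress response element (ERSE), which is read by ATF6 together with NF-Y and by XBP1. It is spelled CCAAT, 9 bases of any kind, then CCACG, and it was searched on both strands in RefSeq promoters of build GRCm38.p6, each a window of 300 bases that reaches from 250 before to 50 after the transcription start. Of the 39 members, 33 had a promoter in the table, and 6 of these (18.2%) held the element, against 37 of all 27025 genes (0.14%) and 39 of all 32851 promoters (0.12%). The 6 with the element were Hspa5, Calr, Hsp90b1, Canx, Pdia6 and Dnajc3. Hyou1, P3h2, Fkbp10, Sec61a1, Kdelr2 and Creb3l1 had no promoter in the table and were not searched. The matches are printed with 20 bases on each side, in the direction of the gene. All of them sit in genes of general folding, and none in the collagen-specific hydroxylases and chaperones that were searched. Capitals mark the conserved ends of the element, which read CGTGG and ATTGG where it lies on the opposite strand.
Hspa5: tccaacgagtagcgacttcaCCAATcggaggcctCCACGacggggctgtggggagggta
Calr: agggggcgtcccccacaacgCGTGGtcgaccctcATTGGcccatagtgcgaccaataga
Hsp90b1, distal: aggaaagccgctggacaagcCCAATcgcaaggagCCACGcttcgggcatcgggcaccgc
Hsp90b1, proximal: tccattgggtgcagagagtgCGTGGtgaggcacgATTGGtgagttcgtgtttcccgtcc
Canx: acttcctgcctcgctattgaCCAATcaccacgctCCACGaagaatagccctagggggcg
Pdia6: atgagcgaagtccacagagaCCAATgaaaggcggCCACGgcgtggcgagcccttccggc
Dnajc3: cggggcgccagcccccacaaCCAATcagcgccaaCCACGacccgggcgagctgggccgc

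The Hspa5 window lies at chr2:34772005-34772063 on the plus strand, and its element spans positions -65 to -47 from the start. The Calr window is chr8:84847055-84847113 on the minus strand, with the element at -162 to -144. Hsp90b1 had 2 elements on the minus strand, at -212 to -194 in chr10:86705618-86705676 and at -107 to -89 in chr10:86705513-86705571. The Canx window is chr11:50325780-50325838 (minus strand, -145 to -127) and the Pdia6 window is chr12:17266471-17266529 (plus strand, -98 to -80). The Dnajc3 window is chr14:118937807-118937865 (plus strand, -105 to -87). No prolyl hydroxylase, Serpinh1 or FK506-binding protein with a promoter in the table held the element in this window, which says only that these letters are not there. ERSE-II, spelled ATTGG, 1 base of any kind, CCACG, occurred in Dnajb11 alone among members, against 12 of all genes (0.04%). The letters TGACGTGG, the unfolded protein response element, occurred in Kdelr3 alone, against 193 of all genes (0.71%). The amino acid response element TGATGCAAT was in 0 of 33 members and in 60 of all genes (0.22%).

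Library totals ran from 13760557 to 22218364 counts. Mitochondrial transcripts made up 18.45% and 26.74% of the total in AdipoqTraced, 35.45% and 38.77% in CD26 and 79.07% and 84.79% in Adipocyte, and 0.19% to 0.94% in the reanalysed set. Outside the mitochondrial genome and ribosomal RNA the other 12 libraries had 9651079 to 22055306 counts and Adipocyte had 2644976 and 2985819, so low members are measured least precisely in Adipocyte. The 6 adipocyte markers summed to 29.7 and 12.7 CPM (counts scaled to a common library size) in AdipoqTraced, 1.20 and 1.45 CPM in CD26 and 4993 and 3319 CPM in Adipocyte, where all 6 were detected. Their part in the comparisons with Adipocyte was not tested. All 6 fibroblast markers were detected in every library, Adipocyte included, and summed to 48530 and 36940 CPM in AdipoqTraced, 52730 and 60520 CPM in CD26 and 4966 and 11000 CPM in Adipocyte. Macrophage markers, 10 of 10 detected in every library, summed to 3185 and 2216 CPM in AdipoqTraced, 3450 and 2786 CPM in CD26 and 848 and 1852 CPM in Adipocyte.

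Levels above and below are CPM after TMM scaling, a library factor that aligns most genes between libraries. That factor was 0.302 and 0.239 in the Adipocyte libraries and 0.837 to 1.598 in the others. Fold changes are log2 ratios from edgeR's quasi-likelihood test over all 14 libraries, each with its standard error (SE). A gene was called where the Benjamini-Hochberg adjusted p over 18394 tested genes was below 0.05. These are bulk samples, in which fewer cells of a type and less RNA per cell cannot be told apart.

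Summed over its genes, the machinery took a larger share of counts in AdipoqTraced and CD26 than in Adipocyte. The 39 genes together took 1.46% and 1.39% of counts outside the mitochondrial genome and ribosomal RNA in AdipoqTraced, 1.19% and 1.09% in CD26, and 0.458% and 0.555% in Adipocyte. In the reanalysed set they took 2.60% and 2.44% in CD29, 2.06% and 2.17% in DN, 2.64% and 2.34% in AP_CD9High and 2.70% and 2.32% in AP_CD9Low. The 3 new groups did not overlap one another, while in the reanalysed set only the DN libraries lay apart, below the other 6.

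**Figure D1:**
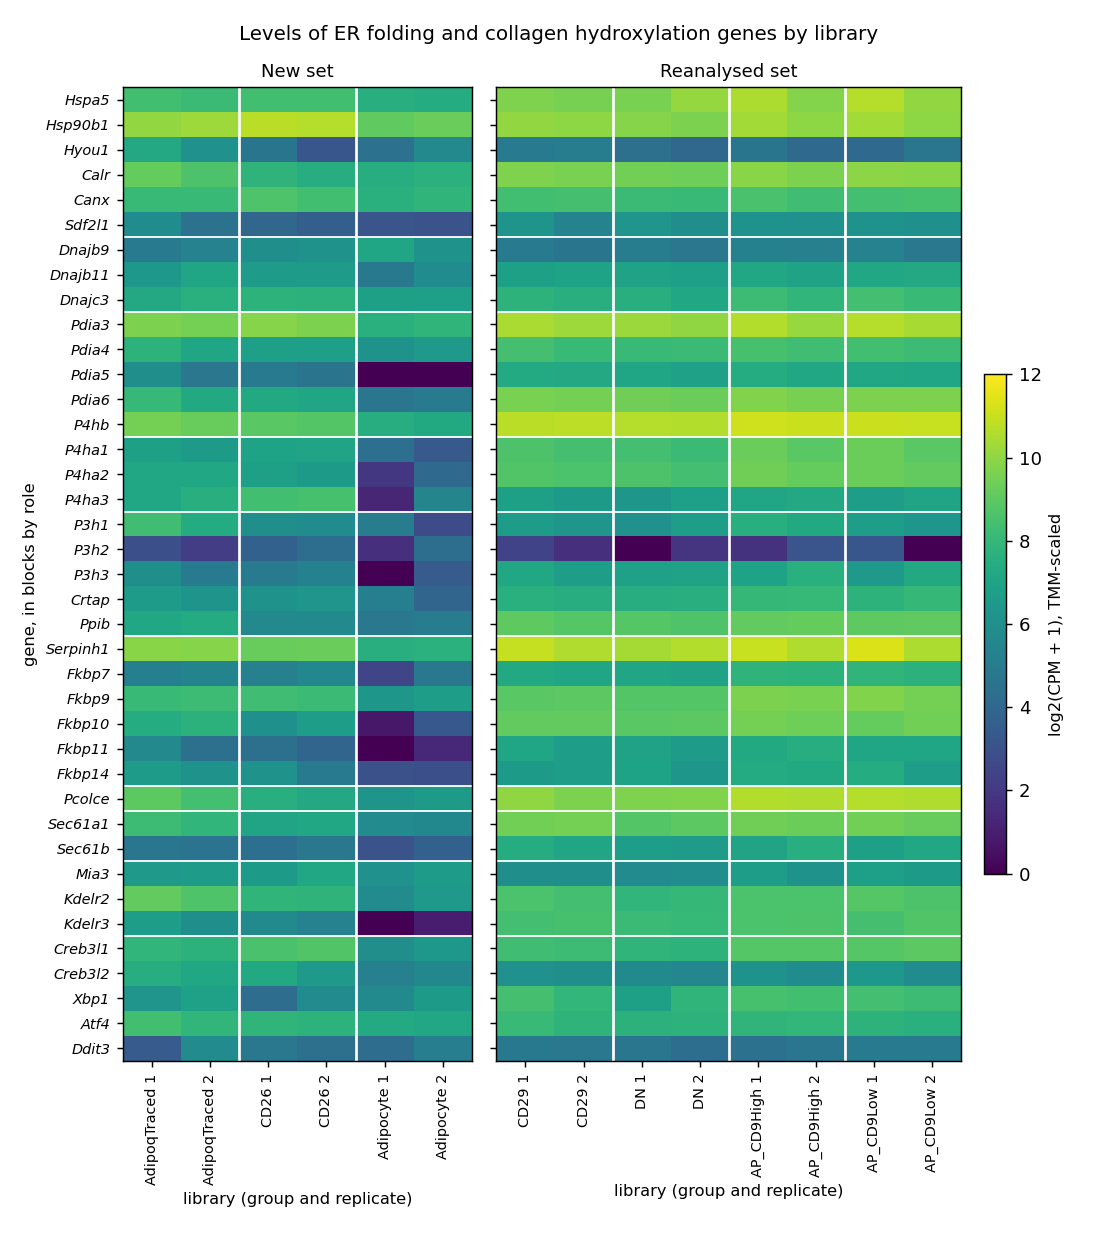
Level of each of the 39 genes (rows, in blocks by role) in each of the 14 libraries (columns), as log2(CPM + 1) after TMM scaling, with the new set on the left and the reanalysed set on the right. The 2 Adipocyte columns are the darkest for most rows, with Pdia5 at 0 counts in both.

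Against Adipocyte, AdipoqTraced had 28 of 39 members called higher (5.61% of all tested genes were) and 1 called lower (4.83% of all). The median log2 fold change of the members was 1.84, against 0.19 over all tested genes. CD26 against Adipocyte had 24 members called higher (5.45% of all) and 0 lower (5.19% of all), with a median of 1.49 against 0.24. At an unadjusted p below 0.05 CD26 also had 0 members lower. Counts at that threshold, here and below, were taken for the members only and stand without a share of all genes. DESeq2 called 28 members higher and 0 lower, with 1887 and 1401 of 18394 genes. These 2 comparisons share the Adipocyte libraries, so they are not independent of each other. AdipoqTraced against CD26 had 8 members called higher (2.37% of all) and 1 lower (1.49% of all), with a median of 0.44 against 0. That count rests on single libraries, as does the count over all genes. Without AdipoqTraced library 1 the members' median was 0.19 against -0.03 over all tested genes, and without AdipoqTraced library 2 it was 0.54 against -0.2. Without CD26 library 1 it was 0.58 against 0, and without CD26 library 2 it was 0.28 against 0.

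Scaling matters for the comparisons with Adipocyte. With library size alone the median of all tested genes moved to 2.25 in AdipoqTraced against Adipocyte and to 1.95 in CD26 against Adipocyte, and all 39 members were positive in both. Over all genes, that setting called 7942 higher and 250 lower in AdipoqTraced against Adipocyte, where TMM called 1032 and 889, and 6197 higher and 298 lower in CD26 against Adipocyte, where TMM called 1002 and 954. A change of scaling moves all genes of a comparison by about the same amount. The distance of the members' median above that of all genes therefore cannot show how far the result depends on scaling. It was 1.65 with TMM and 1.65 with library size in AdipoqTraced, and 1.25 and 1.24 in CD26.

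Within the reanalysed set few members were called, and those were lower in CD29 or DN than in AP. CD29 against the mean of the AP groups had 0 members called higher (2.52% of all) and 2 lower (1.87% of all), with a median of -0.23 against 0.10 over all genes. DN against AP had 0 called higher (4.57% of all) and 6 lower (2.18% of all), with a median of -0.44 against 0. No member was higher at an unadjusted p below 0.05 in either, and 9 and 15 were lower. DESeq2 called 0 members higher in both, with 3 and 7 lower. Of 18394 genes it called 435 higher and 417 lower in CD29, and 743 and 487 in DN. All 39 members were negative in DN against AP, 33 of them with library size alone. In CD29 against AP 33 were negative and 6 positive, but 16 and 23 with library size alone, which moves the median of all genes there to 0.39. Both comparisons share the AP libraries.

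AP_CD9High against AP_CD9Low had 0 members called higher (0.0163% of all) and 0 lower (0.00544% of all), and at an unadjusted p below 0.05 only P3h1 was higher and 0 were lower. CD29 against DN had 0 called higher (0.0109% of all) and 0 lower (0.0489% of all), with 3 members higher and 0 lower at an unadjusted p below 0.05. DESeq2 called 0 members in either direction in both. Of 18394 genes it called 55 higher and 11 lower between the AP groups, and 39 and 70 in CD29 against DN.

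**Figure D2:**
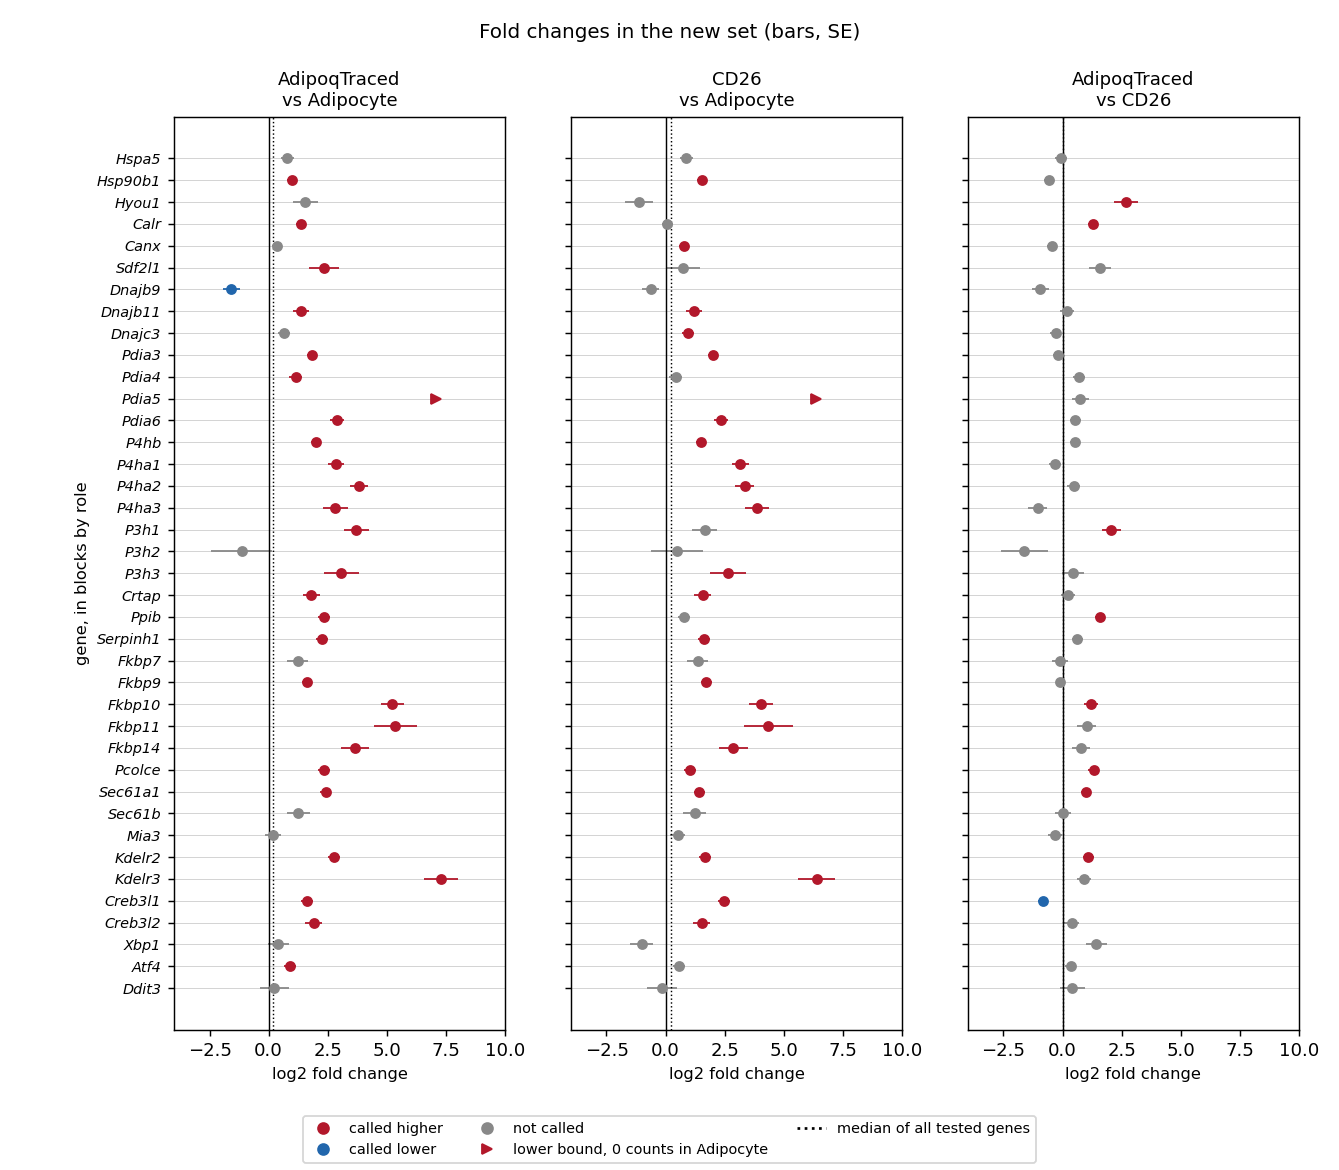
Log2 fold change of each gene (rows, in blocks by role) in the 3 comparisons of the new set, with bars for the SE, a solid line at 0 and a dotted line at the median of all tested genes. Red marks genes called higher, blue lower and grey not called, and a triangle marks Pdia5 as a lower bound because it had 0 counts in Adipocyte. Most points in the left and middle panels lie right of the dotted line, with 28 and 24 called higher.

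Both subunit types of prolyl 4-hydroxylase rose in AdipoqTraced and CD26 against Adipocyte. P4hb (chr11:120560298-120573253), the beta subunit that is also a disulfide isomerase, stood at 721 and 592 CPM in AdipoqTraced, 484 and 439 CPM in CD26 and 177 and 153 CPM in Adipocyte. The 3 groups did not overlap. It was higher in AdipoqTraced than in Adipocyte by 2.0 (SE 0.19, adjusted p = 2.33e-06) and in CD26 than in Adipocyte by 1.49 (SE 0.19, adjusted p = 4.48e-05). Among the reanalysed libraries, P4hb stood at 1710 and 1770 CPM in CD29, 1620 and 1556 CPM in DN, 2276 and 2100 CPM in AP_CD9High and 2089 and 2040 CPM in AP_CD9Low. Every DN and CD29 library lay below every AP library, without a call (DN against AP -0.42, SE 0.16, adjusted p = 0.142).

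P4ha1 (chr10:59323296-59373304), the widespread alpha subunit, stood at 113 and 91.0 CPM in AdipoqTraced, 124 and 130 CPM in CD26 and 19.9 and 9.18 CPM in Adipocyte. It rose in CD26 against Adipocyte by 3.16 (SE 0.35, adjusted p = 9.03e-06) and in AdipoqTraced against Adipocyte by 2.85 (SE 0.35, adjusted p = 3.07e-05). Across the reanalysed groups, P4ha1 had 398 and 353 CPM in CD29, 341 and 288 CPM in DN, 618 and 494 CPM in AP_CD9High and 625 and 491 CPM in AP_CD9Low. It fell in DN against AP (-0.82, SE 0.21, adjusted p = 0.0248), and all CD29 and DN libraries lay below all AP libraries.

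P4ha2 (chr11:54100095-54131665), the second alpha subunit, stood at 141 and 141 CPM in AdipoqTraced, 111 and 92.8 CPM in CD26 and 2.82 and 16.0 CPM in Adipocyte. Both rises were called, 3.83 in AdipoqTraced (SE 0.40, adjusted p = 4.52e-06) and 3.36 in CD26 (SE 0.40, adjusted p = 1.96e-05). P4ha2 in the reanalysed set had 425 and 386 CPM in CD29, 403 and 339 CPM in DN, 679 and 582 CPM in AP_CD9High and 638 and 563 CPM in AP_CD9Low. The CD29 and DN libraries lay below all 4 AP libraries, without a call (-0.60, SE 0.23, adjusted p = 0.192 for CD29 and -0.73, SE 0.23, adjusted p = 0.0702 for DN).

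P4ha3 (chr7:100285520-100319699), the third alpha subunit, ran in another order. It stood at 148 and 189 CPM in AdipoqTraced, 334 and 366 CPM in CD26 and 1.41 and 43.5 CPM in Adipocyte, where library 1 had 6 counts. The rise over Adipocyte was 3.88 in CD26 (SE 0.51, adjusted p = 5.91e-05) and 2.83 in AdipoqTraced (SE 0.52, adjusted p = 0.00119). AdipoqTraced lay below CD26 in every library, without a call (-1.05, SE 0.40, adjusted p = 0.155). Among the reanalysed libraries, P4ha3 had 113 and 91.1 CPM in CD29, 80.9 and 107 CPM in DN, 138 and 150 CPM in AP_CD9High and 105 and 127 CPM in AP_CD9Low.

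Per kilobase of exon, P4ha3 made up 48.5% and 57.4% of the summed level of the 3 alpha subunits in AdipoqTraced and 69.0% and 71.5% in CD26. The 2 Adipocyte libraries disagreed, at 7.8% and 74.3%, with P4ha3 at 1.41 CPM in library 1 and 43.5 CPM in library 2. Why they differ was not tested. In the reanalysed set the P4ha3 share was 17.9% and 16.4% in CD29, 14.9% and 21.5% in DN, 14.6% and 18.3% in AP_CD9High and 11.7% and 16.2% in AP_CD9Low. There P4ha1 took the most per length, 44.2% to 52.8% across the 8 libraries. With the longest transcript as the length, P4ha2 led P4ha1 in all 8, at 48.8% to 52.8%, so the order of P4ha1 and P4ha2 depends on the transcript assumed. The P4ha3 share moved less with that length, to 45.4% and 53.5% in AdipoqTraced and 67.5% and 70.9% in CD26. The difference between the sets was not tested, because set and group cannot be told apart.

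**Figure D3:**
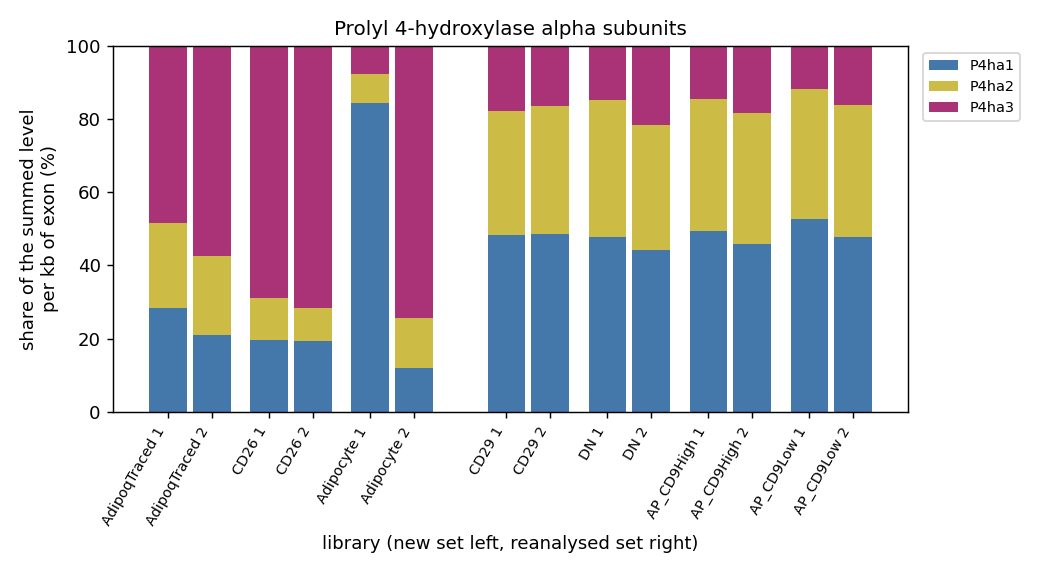
Share of each alpha subunit of prolyl 4-hydroxylase (P4ha1, P4ha2, P4ha3) in their summed level per kilobase of exon, in percent, for each of the 14 libraries. P4ha3 takes 48.5% to 71.5% in AdipoqTraced and CD26, 7.8% and 74.3% in Adipocyte and 11.7% to 21.5% in the reanalysed set.

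Of the 3-hydroxylation genes, 4 of 5 rose in AdipoqTraced against Adipocyte and 2 of 5 in CD26. Ppib (cyclophilin B, chr9:66060222-66066623) stood at 140 and 163 CPM in AdipoqTraced, 48.6 and 53.2 CPM in CD26 and 27.0 and 31.8 CPM in Adipocyte. It was higher in AdipoqTraced than in CD26 by 1.58 (SE 0.22, adjusted p = 0.00133) and than in Adipocyte by 2.36 (SE 0.26, adjusted p = 8.29e-06). The value in CD26 against Adipocyte, 0.78, was not called (SE 0.27, adjusted p = 0.0774). P3h1, the 3-hydroxylase itself, had 321 and 167 CPM in AdipoqTraced, 61.3 and 55.4 CPM in CD26 and 33.1 and 5.86 CPM in Adipocyte. It was higher in AdipoqTraced than in CD26 by 2.07 (SE 0.40, adjusted p = 0.0102) and than in Adipocyte by 3.72 (SE 0.51, adjusted p = 9.3e-05). Both AdipoqTraced libraries lay above every other library of the new set, though far from each other. P3h1 was also the member with the smallest unadjusted p between AP_CD9High (188 and 154 CPM) and AP_CD9Low (106 and 77.5 CPM), with a log2 fold change of 0.90 (SE 0.38, edgeR adjusted p = 1).

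Crtap, the helper protein of P3h1, rose in AdipoqTraced (1.81, SE 0.35, adjusted p = 0.00225) and in CD26 (1.57, SE 0.36, adjusted p = 0.00701) against Adipocyte. P3h3 rose by 3.08 and 2.64 in these comparisons, with 61.0 and 30.2 CPM in AdipoqTraced, 29.4 and 37.8 CPM in CD26 and 0 and 9.96 CPM in Adipocyte. P3h2 was the lowest member in 5 of the 7 groups per length and was not called in any comparison. Its levels of 6.63 and 3.53 CPM in AdipoqTraced, 12.2 and 19.4 CPM in CD26 and 2.11 and 19.1 CPM in Adipocyte overlapped between AdipoqTraced and Adipocyte. In the reanalysed set P3h2 gave the extreme fold change of DN against AP, -1.99 (SE 1.17, adjusted p = 0.437), on 0 and 2.62 CPM in DN against 2.40 and 7.97 CPM in AP_CD9High and 8.30 and 0 CPM in AP_CD9Low. That estimate turns to 2.70 without AP_CD9Low library 1.

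Among the collagen chaperones, Serpinh1 (HSP47, chr7:99345376-99353239) had 942 and 911 CPM in AdipoqTraced, 597 and 602 CPM in CD26 and 181 and 204 CPM in Adipocyte. It rose in AdipoqTraced by 2.27 (SE 0.27, adjusted p = 1.74e-05) and in CD26 by 1.64 (SE 0.26, adjusted p = 0.00037). Per kilobase of exon Serpinh1 was the highest of the 39 members in AdipoqTraced (379 CPM per kb), CD29 (713), DN (588) and AP_CD9Low (840). P4hb was highest in AP_CD9High (765) and Hsp90b1 in CD26 (416) and Adipocyte (142). In DN, AP_CD9High and AP_CD9Low the library ranges of the top pair, Serpinh1 and P4hb, overlapped, so their order is within the spread there.

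Fkbp10 (FKBP65, chr11:100415697-100424824), a proline isomerase that acts on collagen, had the smallest p of all members in AdipoqTraced against Adipocyte. Its levels were 173 and 209 CPM in AdipoqTraced, 64.6 and 103 CPM in CD26 and 0.704 and 8.79 CPM in Adipocyte, where library 1 had 3 counts. The rise was 5.23 in AdipoqTraced (SE 0.48, adjusted p = 9.17e-07) and 4.04 in CD26 (SE 0.50, adjusted p = 2.56e-05). AdipoqTraced was also above CD26 by 1.19 (SE 0.29, adjusted p = 0.0312). Fkbp10 shares 6.6% of its exon length with Nt5c3b on the other strand, whose reads cannot be separated without a known strand setting.

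Fkbp9 had 271 and 297 CPM in AdipoqTraced, 317 and 291 CPM in CD26 and 81.9 and 101 CPM in Adipocyte, and rose by 1.63 and 1.73 (SE 0.22 each, adjusted p = 6.48e-05 and 3.47e-05). Across the reanalysed groups, Fkbp9 was at 492 and 498 CPM in CD29, 437 and 439 CPM in DN, 782 and 756 CPM in AP_CD9High and 845 and 717 CPM in AP_CD9Low. It fell in CD29 (-0.65, SE 0.17, adjusted p = 0.0405) and in DN (-0.82, SE 0.17, adjusted p = 0.00609) against AP. Fkbp11 and Fkbp14 rose in both AdipoqTraced and CD26 against Adipocyte, by 5.36 and 4.34 for Fkbp11, which had 0 and 8 counts in Adipocyte, and by 3.65 and 2.87 for Fkbp14. Fkbp7 was not called, at 1.24 (adjusted p = 0.0921) and 1.36 (adjusted p = 0.0626).

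Pcolce (chr5:137605103-137613784) encodes a secreted enhancer of the proteinase that trims the C-terminal end of procollagen. Its levels were 499 and 340 CPM in AdipoqTraced, 188 and 149 CPM in CD26 and 72.0 and 92.5 CPM in Adipocyte, with no overlap between the groups. It was higher in AdipoqTraced than in Adipocyte by 2.34 (SE 0.25, adjusted p = 6.9e-06), in CD26 than in Adipocyte by 1.03 (SE 0.25, adjusted p = 0.0113), and in AdipoqTraced than in CD26 by 1.31 (SE 0.23, adjusted p = 0.00565). Pcolce in the reanalysed set had 1019 and 781 CPM in CD29, 813 and 854 CPM in DN, 1590 and 1526 CPM in AP_CD9High and 1611 and 1522 CPM in AP_CD9Low. It fell in CD29 (-0.80, SE 0.20, adjusted p = 0.026) and in DN (-0.91, SE 0.20, adjusted p = 0.00786).

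**Figure D4:**
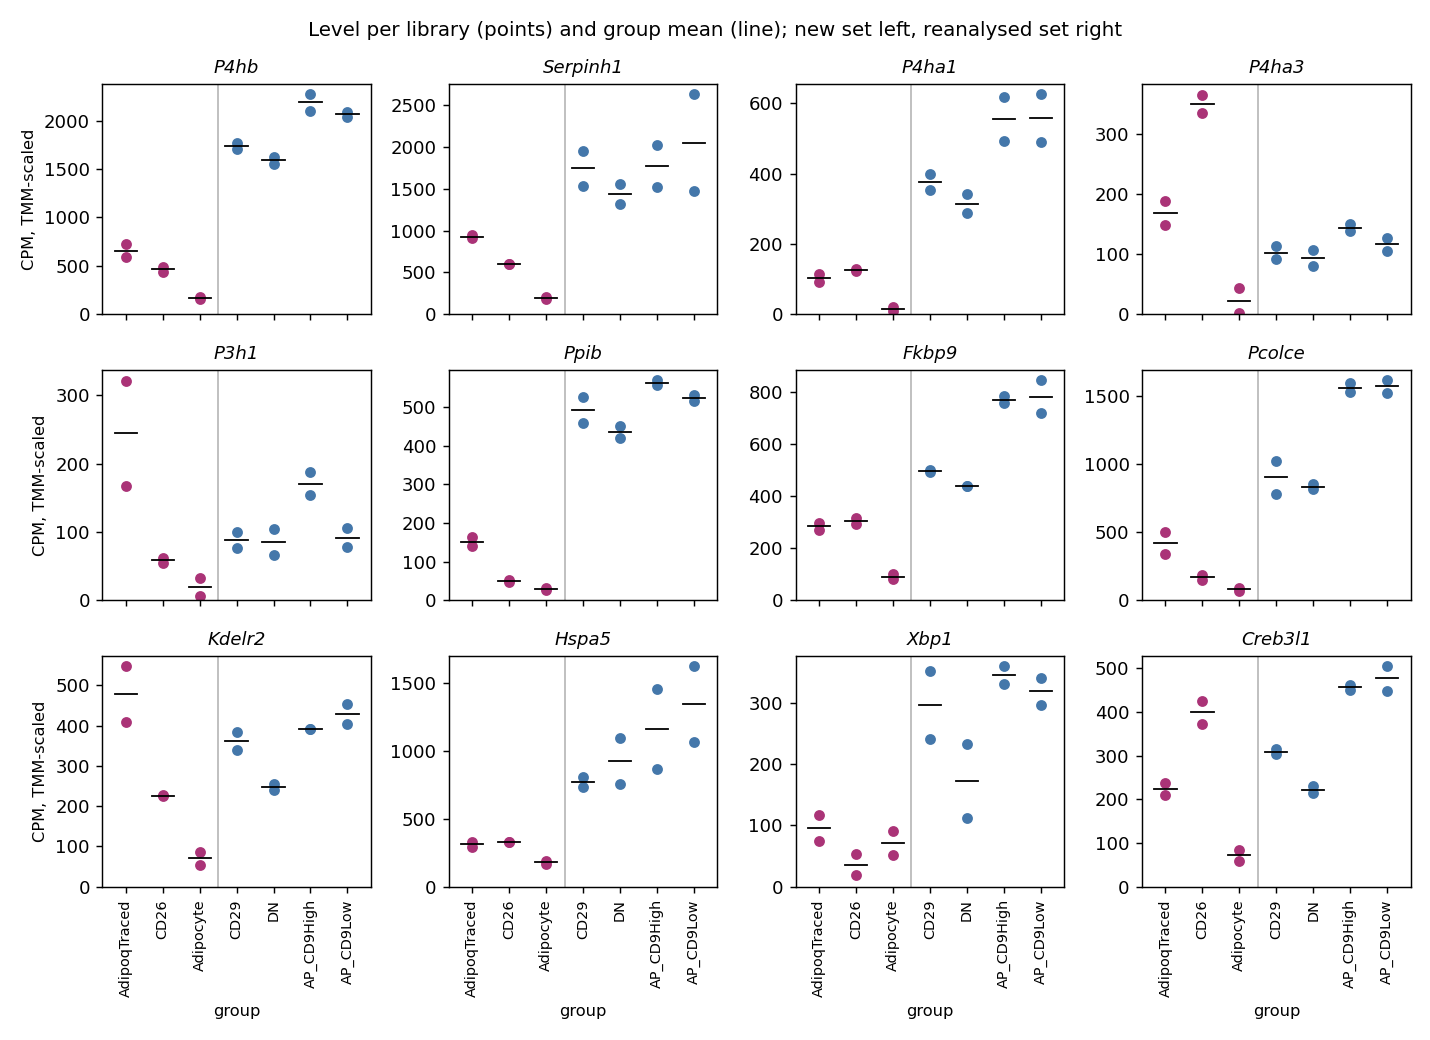
Levels of 12 of the genes in CPM after TMM scaling, with a point for each library and a line at the group mean, new set left and reanalysed set right of the grey line. Creb3l1, Fkbp9 and Pcolce are lower in every CD29 and DN library than in every AP library, and P4ha3 peaks in CD26, at 334 and 366 CPM.

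Of the 6 general chaperones, 3 rose in AdipoqTraced against Adipocyte and 2 in CD26, with medians of 1.18 and 0.77. Hspa5 (BiP), the main ER HSP70, stood at 332 and 292 CPM in AdipoqTraced, 329 and 327 CPM in CD26 and 191 and 169 CPM in Adipocyte. All AdipoqTraced and CD26 libraries lay above Adipocyte, without a call (0.80, SE 0.28, adjusted p = 0.0815 and 0.87, SE 0.28, adjusted p = 0.0558). Among the reanalysed libraries, Hspa5 had 807 and 736 CPM in CD29, 759 and 1093 CPM in DN, 1455 and 868 CPM in AP_CD9High and 1627 and 1069 CPM in AP_CD9Low. Library 1 was the higher of the pair in both AP groups, and CD29 against AP was not called (-0.70, SE 0.23, adjusted p = 0.119).

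Calr, the lectin chaperone calreticulin, had 582 and 398 CPM in AdipoqTraced, 221 and 178 CPM in CD26 and 176 and 203 CPM in Adipocyte. AdipoqTraced lay above the overlapping CD26 and Adipocyte libraries, by 1.3 over CD26 (SE 0.22, adjusted p = 0.00553) and by 1.37 over Adipocyte (SE 0.23, adjusted p = 0.000533). Hyou1 (GRP170), a nucleotide exchange factor for BiP, had 149 and 66.7 CPM in AdipoqTraced, 24.7 and 8.23 CPM in CD26 and 22.3 and 49.4 CPM in Adipocyte. It gave the largest rise over CD26, 2.69 (SE 0.51, adjusted p = 0.00876), and was not called against Adipocyte (1.56, SE 0.53, adjusted p = 0.0743). In CD26 against Adipocyte Hyou1 was the most negative member, -1.13 (SE 0.59, adjusted p = 0.302), but 0.63 with library size alone. In CD29 against AP it was the most positive, 0.60 (SE 0.41, adjusted p = 0.602), on 29.9 and 32.4 CPM in CD29 against 24.3 and 16.1 CPM in AP_CD9High and 16.2 and 25.5 CPM in AP_CD9Low.

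Hsp90b1 (GRP94) ran the other way, with 1066 and 1197 CPM in AdipoqTraced, 1711 and 1643 CPM in CD26 and 531 and 610 CPM in Adipocyte. Both rises over Adipocyte were called (0.99, adjusted p = 0.00367 and 1.55, adjusted p = 6.32e-05), and AdipoqTraced below CD26 was not (-0.57, SE 0.20, adjusted p = 0.13). Canx rose in CD26 (0.78, SE 0.22, adjusted p = 0.0265) and was not called in AdipoqTraced (0.35, SE 0.22, adjusted p = 0.382). Sdf2l1, a partner of the ER DnaJ proteins, rose in AdipoqTraced (2.34, SE 0.63, adjusted p = 0.0217) and was not called in CD26 (0.75, SE 0.71, adjusted p = 0.632). Hsp90b1 shares 15.7% of its exon length with other annotated genes.

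The cochaperones split. Dnajb9 (ERdj4), which recruits misfolded protein to degradation, was the single member called lower in AdipoqTraced against Adipocyte (-1.57, SE 0.37, adjusted p = 0.0098). Its levels were 29.8 and 38.7 CPM in AdipoqTraced, 61.3 and 70.1 CPM in CD26 and 136 and 69.3 CPM in Adipocyte. Adipocyte library 1 stood well above library 2, the call was lost without AdipoqTraced library 1 (-1.40) or Adipocyte library 1 (-0.95), and the value turned to 0.45 with library size alone. Dnajb11 (ERdj3) rose in AdipoqTraced (1.38, SE 0.34, adjusted p = 0.0135) and CD26 (1.20, SE 0.34, adjusted p = 0.0322). Dnajc3 (p58IPK), an inhibitor of the kinase PERK, had 152 and 193 CPM in AdipoqTraced, 218 and 206 CPM in CD26 and 111 and 108 CPM in Adipocyte, and rose in CD26 (0.95, SE 0.26, adjusted p = 0.0219). Across the reanalysed groups, Dnajc3 had 218 and 182 CPM in CD29, 183 and 145 CPM in DN, 302 and 238 CPM in AP_CD9High and 342 and 283 CPM in AP_CD9Low, and fell in DN (-0.82, SE 0.21, adjusted p = 0.0225).

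All 5 disulfide isomerases rose in AdipoqTraced against Adipocyte and 4 of 5 in CD26. Pdia3 (ERp57), the partner of calnexin and calreticulin, had 789 and 720 CPM in AdipoqTraced, 912 and 800 CPM in CD26 and 193 and 229 CPM in Adipocyte. It rose by 2.02 in CD26 (SE 0.22, adjusted p = 7.08e-06) and 1.84 in AdipoqTraced (SE 0.22, adjusted p = 2.02e-05). Pdia6 stood at 262 and 157 CPM in AdipoqTraced, 157 and 132 CPM in CD26 and 24.9 and 31.2 CPM in Adipocyte, and rose by 2.89 (SE 0.30, adjusted p = 4.77e-06) and 2.35 (SE 0.30, adjusted p = 4.02e-05). Pdia4 rose in AdipoqTraced (1.14, SE 0.28, adjusted p = 0.0118) and was not called in CD26 (0.43, SE 0.28, adjusted p = 0.433). None of the 5 was called in the reanalysed set.

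Pdia5 (chr16:35397312-35490873) had 0 counts in both Adipocyte libraries, against 61.6 and 26.1 CPM in AdipoqTraced and 28.7 and 23.4 CPM in CD26. With 3 counts over the Adipocyte group as the limit that a count of 0 allows, covering counting error only, it was at least 137.1-fold higher in AdipoqTraced and at least 82.13-fold higher in CD26. The quasi-likelihood test of any difference gave adjusted p = 0.000133 and 0.000766, which do not test these bounds. The members' medians were the same with Pdia5 at these bounds, 1.84 and 1.49. Pdia5 in the reanalysed set was at 116 to 170 CPM in every library.

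Both KDEL receptors and Sec61a1 rose over Adipocyte, and Sec61b and Mia3 were not called. Kdelr2 and Kdelr3 encode receptors that return chaperones ending in KDEL-like signals from the Golgi to the ER. Kdelr2 (chr5:143403838-143421901) had 548 and 410 CPM in AdipoqTraced, 228 and 225 CPM in CD26 and 54.4 and 85.7 CPM in Adipocyte. It rose in AdipoqTraced by 2.76 over Adipocyte (SE 0.26, adjusted p = 1.93e-06) and by 1.08 over CD26 (SE 0.23, adjusted p = 0.0166), and in CD26 by 1.68 over Adipocyte (SE 0.26, adjusted p = 0.000271). Among the reanalysed libraries, Kdelr2 had 384 and 339 CPM in CD29, 240 and 256 CPM in DN, 392 and 392 CPM in AP_CD9High and 454 and 403 CPM in AP_CD9Low. It fell in DN (-0.73, SE 0.20, adjusted p = 0.0372), with DN below all other libraries of the set.

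Kdelr3 had 106 and 62.6 CPM in AdipoqTraced, 51.0 and 39.1 CPM in CD26 and 0 and 0.976 CPM in Adipocyte, which is 0 and 5 counts. Its fitted rises of 7.29 (SE 0.71, adjusted p = 2.45e-06) and 6.39 (SE 0.78, adjusted p = 2.48e-05) rest on those 5 counts. Sec61a1, the pore of the translocon, stood at 297 and 241 CPM in AdipoqTraced, 127 and 146 CPM in CD26 and 53.5 and 48.0 CPM in Adipocyte. It rose over Adipocyte by 2.41 in AdipoqTraced (SE 0.24, adjusted p = 3.72e-06) and 1.43 in CD26 (SE 0.24, adjusted p = 0.000681), and in AdipoqTraced over CD26 by 0.98 (SE 0.21, adjusted p = 0.0168). In CD29 against DN Sec61a1 had the smallest unadjusted p of the members (695 and 723 CPM in CD29 against 436 and 500 CPM in DN), without a call (0.60, SE 0.20, adjusted p = 0.406). Sec61b was not called against Adipocyte (1.26, adjusted p = 0.112 and 1.24, adjusted p = 0.126). Mia3, the procollagen export receptor, was not called either, at 87.0 and 98.6 CPM in AdipoqTraced, 92.2 and 140 CPM in CD26 and 65.7 and 96.7 CPM in Adipocyte, with overlapping libraries.

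With TMM scaling the 5 transcription factors did not move together. With library size alone all 5 were called higher in AdipoqTraced against Adipocyte, where that setting called 7942 of 18394 genes higher. Xbp1 rose there by 2.505 and Ddit3 by 2.337 (edgeR adjusted p = 0.000186 and 0.00509). In CD26 against Adipocyte that setting also called Atf4, but not Xbp1 or Ddit3, with 6197 of all genes called higher. Creb3l1 (OASIS, chr2:91982328-92024502), an ER-anchored factor known to drive collagen and secretory genes, had 237 and 209 CPM in AdipoqTraced, 373 and 425 CPM in CD26 and 59.4 and 84.5 CPM in Adipocyte. It rose by 2.46 in CD26 (SE 0.24, adjusted p = 2.56e-06), the smallest p of the members there, and by 1.62 in AdipoqTraced (SE 0.24, adjusted p = 0.000193). AdipoqTraced lay below CD26 (-0.84, SE 0.21, adjusted p = 0.0376), the single member called lower in that comparison. Across the reanalysed groups, Creb3l1 had 314 and 303 CPM in CD29, 229 and 214 CPM in DN, 452 and 462 CPM in AP_CD9High and 449 and 506 CPM in AP_CD9Low. Its fall in DN against AP (-1.07, SE 0.19, adjusted p = 0.00167) was called in all 14 alternatives tried, and CD29 lay between DN and AP without a call (-0.60, SE 0.19, adjusted p = 0.0916).

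Creb3l2, its close relative, stood at 177 and 143 CPM in AdipoqTraced, 157 and 87.3 CPM in CD26 and 36.8 and 47.6 CPM in Adipocyte. It rose in AdipoqTraced (1.91, SE 0.37, adjusted p = 0.00187) and CD26 (1.53, SE 0.37, adjusted p = 0.0105) against Adipocyte. Creb3l2 in the reanalysed set was between 45.7 and 82.8 CPM in all 8 libraries and was not called (DN against AP -0.41, SE 0.28, adjusted p = 0.527).

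Xbp1, whose spliced form drives the IRE1 branch of the response, stood at 74.6 and 118 CPM in AdipoqTraced, 18.3 and 53.8 CPM in CD26 and 51.2 and 91.4 CPM in Adipocyte. It was not called against Adipocyte in AdipoqTraced (0.42, SE 0.46, adjusted p = 0.68) or in CD26 (-1.01, SE 0.48, adjusted p = 0.235), and the groups overlapped in both. AdipoqTraced lay above CD26 in both libraries without a call (1.43, SE 0.44, adjusted p = 0.0824), and was called above it with library size alone (1.8, adjusted p = 0.0158). Gene counts do not separate spliced from unspliced Xbp1. Among the reanalysed libraries, Xbp1 had 353 and 242 CPM in CD29, 113 and 233 CPM in DN, 360 and 331 CPM in AP_CD9High and 342 and 297 CPM in AP_CD9Low, with DN below AP in both libraries but not called (-0.95, SE 0.36, adjusted p = 0.152).

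Atf4, the factor of the integrated stress response, stood at 326 and 238 CPM in AdipoqTraced, 230 and 216 CPM in CD26 and 161 and 140 CPM in Adipocyte. It rose in AdipoqTraced (0.91, SE 0.24, adjusted p = 0.0198), and was not called in CD26 (0.57, SE 0.24, adjusted p = 0.167). Across the reanalysed groups, Atf4 had 276 and 225 CPM in CD29, 206 and 217 CPM in DN, 229 and 244 CPM in AP_CD9High and 216 and 194 CPM in AP_CD9Low. DN overlapped AP_CD9Low and CD29 overlapped AP_CD9High, the other pairs did not overlap, and none of these comparisons was called. Ddit3 (CHOP), a factor of prolonged stress, had 9.72 and 53.6 CPM in AdipoqTraced, 27.2 and 20.3 CPM in CD26 and 18.8 and 33.8 CPM in Adipocyte, and all groups overlapped. Ddit3 in the reanalysed set stayed between 19.3 and 31.0 CPM, and with TMM scaling it was not called in any of the 7 comparisons. Its call with library size alone is given above. It shares 10.9% of its exon length with other genes, Mars among them.

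Members with and without the ERSE printed above can be set side by side, as a description with no test. In AdipoqTraced against Adipocyte the 6 members with it had a median of 0.89 with 3 called higher, and the 27 others with a promoter had a median of 2.0 with 21 higher and 1 lower. In CD26 against Adipocyte the medians were 0.91 with 4 of 6 higher, and 1.53 with 16 of 27 higher. In AdipoqTraced against CD26 the medians were -0.18 with 1 of 6 higher, and 0.44 with 3 of 27 higher. In DN against AP they were the same, -0.43 in both, with 1 of 6 and 3 of 27 lower. In CD29 against AP they were -0.18 and -0.26, with 0 of 6 and 2 of 27 lower. None was called in AP_CD9High against AP_CD9Low (-0.06 and 0.08) or in CD29 against DN (0.25 and 0.15). Pdia6, whose element is shown above, had the highest value of the 6 in AdipoqTraced against Adipocyte, 2.89, and Canx the lowest, 0.35.

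**Figure D5:**
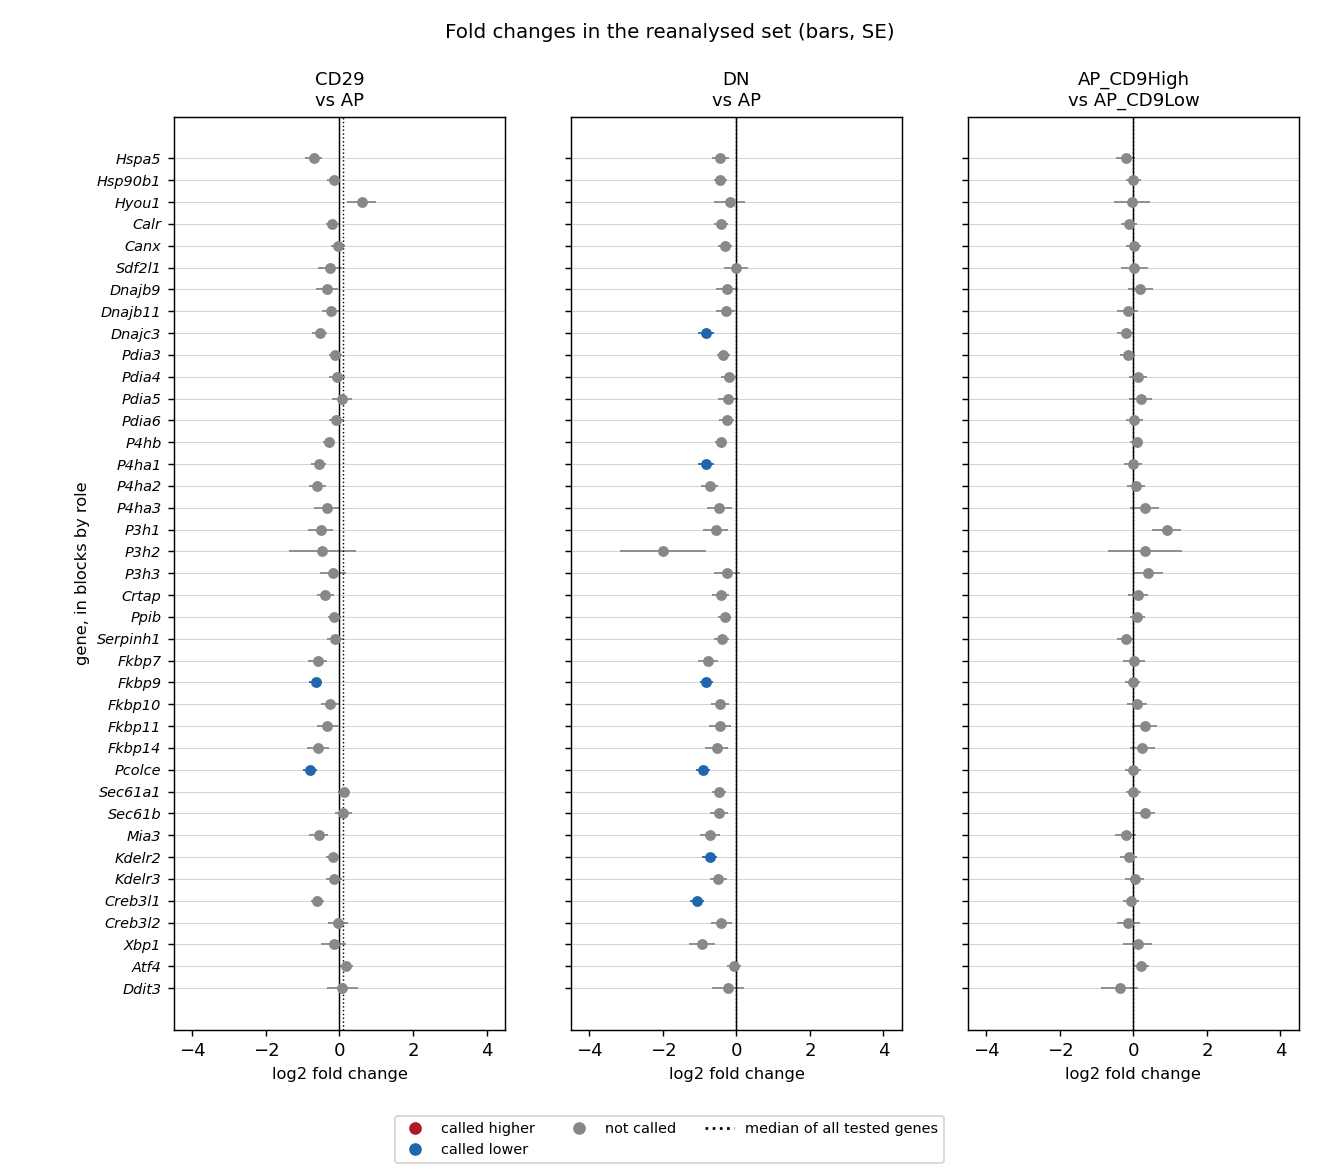
Log2 fold change of each gene (rows, in blocks by role) in 3 comparisons of the reanalysed set, with bars for the SE, a solid line at 0 and a dotted line at the median of all tested genes. Blue marks genes called lower (2 in CD29 against AP, 6 in DN against AP) and grey genes not called. In the middle panel all 39 points lie left of 0, and in the right panel the points scatter around 0.

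Markers of other cell types moved with the DN and CD29 groups. Summed macrophage markers, 10 of 10 detected in each library, were 9323 and 8318 CPM in DN and 3884 and 3473 CPM in CD29, against 2143 and 1821 CPM in AP_CD9High and 1105 and 1032 CPM in AP_CD9Low. The 7 mast cell markers summed to 383 and 421 CPM in DN and 46.5 and 87.6 CPM in CD29, against 5.01 to 19.7 CPM in the AP libraries. Fibroblast markers, 6 of 6 detected, summed to 39440 and 33720 CPM in DN and 39870 and 33520 CPM in CD29, against 69480 to 71120 CPM in AP. Of these 6, 3 were called lower and 1 higher in CD29 against AP, and 3 lower and 0 higher in DN. Pericyte markers summed to 92.3 and 86.8 CPM in DN and 216 and 271 CPM in CD29, against 3.63 to 16.0 CPM in AP. Keratinocyte markers summed to 73.8 and 1594 CPM in DN and 32.6 and 196 CPM in CD29, against 6.19 to 29.4 CPM in AP, with 4 of 6 called higher in DN and 0 in CD29. Neutrophil markers summed to 536 and 199.6 CPM in DN and 115 and 74.8 CPM in CD29, against 36.0 to 76.7 CPM in AP, with 3 of 4 tested called higher in DN and 0 in CD29. Skeletal muscle markers summed to 122.5 and 8.53 CPM in DN and 12.2 and 16.8 CPM in CD29, against 0.764 to 4.51 CPM in AP, with 4 of 5 called higher in DN. Endothelial markers overlapped, at 37.0 and 92.9 CPM in DN, 15.6 and 45.8 CPM in CD29 and 21.3 to 40.9 CPM in AP, with 2 of 5 called higher in DN and 1 in CD29. The part of all these in the lower levels of Creb3l1, Fkbp9, Pcolce, Dnajc3, P4ha1 and Kdelr2 was not tested. Plasma and B cell markers, from cells that also run a large ER, summed to at most 6.10 CPM in any library. T cell markers summed to at most 6.25 CPM.

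Other markers also differed within the new set. Pericyte markers summed to 403 and 235 CPM in AdipoqTraced, 95.2 and 140 CPM in CD26 and 472 and 306 CPM in Adipocyte, with 2 of 5 called higher in AdipoqTraced than in CD26. Endothelial markers summed to 17.2 and 44.4 CPM in AdipoqTraced, 89.2 and 128 CPM in CD26 and 23.0 and 31.0 CPM in Adipocyte, with 0 of 5 called between AdipoqTraced and CD26. Keratinocyte markers summed to 596 and 347 CPM in AdipoqTraced, 403 and 1159 CPM in CD26 and 41.1 and 87.7 CPM in Adipocyte, and skeletal muscle markers to at most 2.70 CPM in AdipoqTraced and CD26 and to 145 and 396 CPM in Adipocyte. Their part in the calls of AdipoqTraced against CD26 and of both groups against Adipocyte was not tested.

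The rest of the secretory pathway was read from 8 further gene lists, whose median log2 fold changes stand against 0.19 (AdipoqTraced) and 0.24 (CD26) over all tested genes in the comparisons with Adipocyte. Their counts stand against the shares of all tested genes given above, 5.61% and 5.45% higher and 4.83% and 5.19% lower in these comparisons, 2.37% higher and 1.49% lower in AdipoqTraced against CD26, 2.52% and 1.87% in CD29 against AP, and 4.57% and 2.18% in DN against AP. Of 21 translocation and signal peptidase genes, 8 rose in AdipoqTraced and 6 in CD26 against Adipocyte, and 0 fell, with medians of 0.85 and 0.25. The translocon-associated proteins Ssr3 and Ssr1 led both, at 1.68 and 1.40 in AdipoqTraced (adjusted p = 3.16e-05 and 0.000371) and 1.77 and 1.46 in CD26 (adjusted p = 1.81e-05 and 0.000254). In DN against AP 3 fell, Tram2 (-1.24, SE 0.31, adjusted p = 0.0206), Ssr1 (-0.70, SE 0.18, adjusted p = 0.0215) and Ssr3. Of 21 N-glycosylation genes 9 rose in AdipoqTraced and 4 in CD26, with medians of 1.78 and 0.86. They were led by the oligosaccharyltransferase subunits Rpn1 (2.40, SE 0.28, adjusted p = 1.58e-05) and Ddost (2.61, SE 0.31, adjusted p = 2.18e-05) in AdipoqTraced, and by Ddost (1.85, SE 0.32, adjusted p = 0.000718) and Ostc (2.1, SE 0.40, adjusted p = 0.00177) in CD26.

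Of 18 ER oxidation genes and other isomerases, 7 rose in AdipoqTraced (median 1.02), while 8 rose and 1 fell in CD26 (median 1.36). Ppic, another cyclophilin, rose by 2.53 in AdipoqTraced and 2.33 in CD26 (SE 0.25 each, adjusted p = 2.33e-06 and 5.04e-06), and the peroxiredoxin Prdx4 by 3.30 and 3.55 (adjusted p = 0.000222 and 8.46e-05). In AdipoqTraced against CD26 3 rose, among them Fkbp2 (1.89, SE 0.37, adjusted p = 0.0102) and Erp29 (1.27, SE 0.28, adjusted p = 0.0197). Of 26 ER to Golgi genes, with medians of 0.74 in AdipoqTraced and 0.48 in CD26, 8 rose in AdipoqTraced, led by the cargo receptors Surf4 (2.12, SE 0.25, adjusted p = 2.19e-05) and Lman1 (2.42, SE 0.29, adjusted p = 2.41e-05). In CD26 5 rose and 1 fell, with Arf4 (1.95, SE 0.21, adjusted p = 6.12e-06) and Lman1 (2.07, SE 0.29, adjusted p = 0.000111) first. AdipoqTraced had 5 above and 1 below CD26, including Kdelr1, the third KDEL receptor (2.53, SE 0.37, adjusted p = 0.00233), and Sar1a, the GTPase of the export coat (3.85, SE 0.59, adjusted p = 0.00373). The coat subunits Sec23a (-0.91, SE 0.20, adjusted p = 0.00761) and Sec31a (-0.87, SE 0.19, adjusted p = 0.00916) were among 3 that fell in DN against AP.

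The degradation and stress-response lists were mixed. Of 18 ER-associated degradation genes, 2 rose in AdipoqTraced against Adipocyte, while in CD26 1 rose and 3 fell: Sel1l, an adaptor of the ER ubiquitin ligase (-1.78, SE 0.39, adjusted p = 0.0054), Derl2 (-2.15, SE 0.55, adjusted p = 0.0158) and Vcp. The median of this list was 0.39 in both. Its 1 gene higher in CD26 is a share near that of all genes, as are the 1 ER to Golgi gene and the 1 ER oxidation gene lower there. Of 21 unfolded protein response sensors and targets, 4 rose and 2 fell in AdipoqTraced, and 3 rose and 3 fell in CD26, with a median of 0.15 in both. Manf, a secreted ER stress protein, had 165 and 84.9 CPM in AdipoqTraced, 44.1 and 57.3 CPM in CD26 and 10.8 and 8.01 CPM in Adipocyte (3.75, SE 0.46, adjusted p = 2.63e-05 and 2.44, SE 0.48, adjusted p = 0.00242 over Adipocyte). Ern1, the sensor IRE1 alpha, had 99.1 and 78.0 CPM in AdipoqTraced, 72.5 and 63.1 CPM in CD26 and 3.29 and 13.1 CPM in Adipocyte (3.37 in AdipoqTraced, SE 0.61, adjusted p = 0.00111). Atf5, a partner factor of the ATF4 branch, fell to 10.3 and 10.9 CPM in CD26, against 75.6 and 123 CPM in Adipocyte (-3.23, SE 0.45, adjusted p = 9.39e-05). It had 38.2 and 38.5 CPM in AdipoqTraced, higher than CD26 by 1.85 (SE 0.44, adjusted p = 0.0282).

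The 2 collagen lists had the largest shares of genes called higher against Adipocyte among the 8. Of 19 other collagen modification and trimming genes, 14 rose in AdipoqTraced and 11 in CD26 against Adipocyte, and 0 fell, with medians of 2.44 and 3.28. Plod2, which hydroxylates the lysines used for cross-links, had 292 and 270 CPM in AdipoqTraced, 618 and 655 CPM in CD26 and 10.1 and 11.7 CPM in Adipocyte. It rose by 4.68 in AdipoqTraced (SE 0.39, adjusted p = 4.41e-07) and 5.86 in CD26 (SE 0.39, adjusted p = 5.28e-08). The matrix glycoprotein Sparc rose in AdipoqTraced (1.65, SE 0.17, adjusted p = 3.81e-06) and the cross-linking oxidase Loxl2 in CD26 (4.17, SE 0.42, adjusted p = 3e-06). In this list 4 genes fell in CD29 and 6 in DN against AP, with Sparc at -0.85 and -0.88 (SE 0.15 each, adjusted p = 0.0021 and 0.000987) and Plod2 at -1.12 and -1.05 (SE 0.24 each, adjusted p = 0.0108 and 0.0114).

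Of 15 collagen chains, 13 rose in AdipoqTraced, and 13 rose and 1 fell in CD26, against Adipocyte, with medians of 3.33 and 3.08. The 1 that fell in CD26 is a share near that of all genes. Col12a1 rose by 7.11 and 6.52 (SE 0.28 each, adjusted p = 2.02e-10 and 6.18e-10) and Col5a1 by 4.0 and 3.93 (SE 0.22 each, adjusted p = 5.37e-09 and 6.52e-09). AdipoqTraced had 4 above and 2 below CD26, with Col6a3 (1.72, SE 0.20, adjusted p = 0.000309) and Col6a1 (1.20, SE 0.19, adjusted p = 0.00373) first. Against AP the chains moved in both directions, 4 up and 3 down in CD29 and 1 up and 4 down in DN. Col14a1 fell in CD29 (-2.89, SE 0.30, adjusted p = 1.62e-05) and DN (-1.93, SE 0.28, adjusted p = 0.000304), while Col12a1 rose in CD29 (1.41, SE 0.17, adjusted p = 5.98e-05) and Col11a1 in DN (3.86, SE 0.69, adjusted p = 0.00113). No gene of the 8 lists was called in AP_CD9High against AP_CD9Low or in CD29 against DN.

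Between AP_CD9High and AP_CD9Low the members spanned -0.37 (Ddit3, SE 0.50) to 0.90 (P3h1), with a median of 0.02. P4ha1, P4ha2 and P4ha3 differed there by -0.01, 0.07 and 0.31 (SE 0.24, 0.25 and 0.40), and Xbp1, Creb3l1, Creb3l2 and Atf4 by 0.11, -0.06, -0.13 and 0.21. Between CD29 and DN they spanned -0.26 (Hspa5) to 1.52 (P3h2, SE 1.35), with a median of 0.18 against 0 over all genes, and 35 of 39 were positive.

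The calls differ in how far they rest on a single library. Each p in this account is the highest adjusted p of that call over its alternatives (edgeR, or DESeq2 where that was the alternative). In AdipoqTraced against Adipocyte 22 of 29 called members, and in CD26 against Adipocyte 15 of 24, were called in all 12 alternatives. A fit of the new set alone (the libraries of the same set) also lost Sdf2l1, Pdia4, P3h3, Dnajb11 and Atf4 in AdipoqTraced against Adipocyte, and Canx, Dnajb11, Dnajc3, P3h3, Crtap, Fkbp11 and Pcolce in CD26 against Adipocyte. In AdipoqTraced against Adipocyte the other losses besides Dnajb9 were Sdf2l1 (without either Adipocyte library or AdipoqTraced library 1, adjusted p up to 0.205), Pdia4 and P3h3 (without Adipocyte library 1 or AdipoqTraced library 1, up to 0.126 and 0.148), and Dnajb11 (without Adipocyte library 1 or AdipoqTraced library 2, up to 0.182). Atf4 was lost without Adipocyte library 2 or AdipoqTraced library 1 (up to 0.147), and P4ha3 only with edgeR's older quasi-likelihood method (0.0622). In CD26 against Adipocyte Dnajc3 was lost without any of the 4 libraries (up to 0.0986). P3h3 was called in 5 of 12 alternatives, and was also lost with edgeR's older method, the replicate block and DESeq2, and without Adipocyte library 1 or either CD26 library (up to 0.309). Dnajb11 was lost without the same libraries (up to 0.30), Canx and Pcolce without Adipocyte library 1 or CD26 library 1 (up to 0.178 and 0.10), Crtap without Adipocyte library 2 (0.107), and Fkbp11 and Fkbp14 without either Adipocyte library (up to 0.15 and 0.0846). Creb3l2 was lost without either Adipocyte library or CD26 library 1 (up to 0.14).

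In AdipoqTraced against CD26 none of the 9 calls held in all 12 alternatives, since a fit of the new set alone called 0. Ppib was lost there only (adjusted p = 0.0799). Hyou1, Calr and Pcolce were also lost without AdipoqTraced library 1 or CD26 library 2 (up to 0.153, 0.116 and 0.122), and P3h1, Sec61a1 and Kdelr2 also without CD26 library 1 (up to 0.156, 0.155 and 0.172), with P3h1 lost under the older method as well. Fkbp10 was called in 4 of 12 and Creb3l1 in 3 of 12, each lost without any of the 4 libraries. In CD29 against AP Fkbp9 and Pcolce were called in 4 and 6 of 14 alternatives and lost without any of the 6 libraries (up to 0.338 and 0.382). In DN against AP Creb3l1 held throughout, Fkbp9 and Pcolce were lost without either DN library (up to 0.0961 and 0.12), and Dnajc3 and P4ha1 without either DN library or library 1 of either AP group, with library size alone and with the older method (up to 0.304 and 0.282). Kdelr2 was called in 4 of 14 and lost without any of the 6 libraries (up to 0.316).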

How the data were processed

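The authors deposited whole-number read counts per gene for 14 libraries, not normalized, with Ensembl identifiers. Per the submitters' processing notes CASAVA 1.8.2, HISAT2 2.1, StringTie 1.3.3b and DESeq2 were used with the mouse build mm10. Neither strand setting nor annotation release is named in these notes. Per the labels' protocols the SMARTer Ultra Low RNA kit was used on very small amounts of RNA. No molecular identifiers are mentioned, so limits here cover counting error only.

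Symbols, positions and exon lengths came from GENCODE M21 (mm10), in which 52403 of 52636 identifiers matched. Genes were kept by edgeR's filterByExpr (18394 genes). All 14 libraries were fitted in edgeR 4.0.16 (R 4.3.3) with TMM scaling, 1 coefficient per group and the robust quasi-likelihood F test, two-sided, with Benjamini-Hochberg adjustment and a threshold of 0.05. AP was the mean of the AP_CD9High and AP_CD9Low coefficients. The SE was derived from the log2 fold change and the F statistic. DESeq2 1.42.0 was an alternative. The steps were tested on simulated counts. No replicate pair was identical.

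Members, lists, tests and the rule for named genes were chosen with earlier results of these data known. Values per library are given for the 8 called members with the smallest p in each comparison, called members against the main direction, the transcription factors, the P4ha genes and the extremes. Other lists are named by their 2 called genes with the smallest p where at least 3 were called. Protein sequences were not used here.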

Additional observations from a re-analysis of the deposited data

How the results depend on the processing

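Each comparison was recomputed with RLE scaling, library size alone, TMM without mitochondrial and ribosomal RNA genes, no filter on low counts, edgeR's older quasi-likelihood method, DESeq2, only the libraries of the same set, a replicate block, and without each library in turn. The 28 and 24 members called higher in AdipoqTraced and CD26 against Adipocyte stayed within 1.5 times of those counts throughout, at 23 to 37 and 17 to 35. The share of all genes moved much more. The upper ends come from library size alone, which called 7942 and 6197 of 18394 genes higher, against 1032 and 1002 with TMM. With only the libraries of the same set, 637 and 741 of 15542 genes were called higher, and 42 in AdipoqTraced against CD26. The 1 member called lower in AdipoqTraced against Adipocyte was 0 with library size alone and 0 to 1 when a library was left out. AdipoqTraced against CD26, with 8 higher and 1 lower, gave 16 higher with library size alone, 0 with only the libraries of the same set, and 1 to 13 when a library was left out. The lower count there was 0 with library size alone, no filter, the older method, the replicate block and the same set only, 2 with DESeq2, and 0 without any library. CD29 against AP, with 2 lower, gave 0 with library size alone and the older method, 1 without the filter and with the replicate block, and 5 with only the libraries of the same set. Without each library in turn that count fell, as did the calls over all genes, with the members' median at -0.32 to -0.13. DN against AP, with 6 lower, gave 3 with library size alone and with the older method, and 8 with only the libraries of the same set. This count also fell without each library in turn, as did the calls over all genes, with the members' median at -0.51 to -0.41. The cause was not tested.

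Over all genes the counts of calls ranged from 960 to 8192 around 1921 (AdipoqTraced against Adipocyte), 964 to 6495 around 1956 (CD26 against Adipocyte), 69 to 1251 around 710 (AdipoqTraced against CD26), 0 to 66 around 4 (AP_CD9High against AP_CD9Low), 340 to 1124 around 808 (CD29 against AP), 620 to 1488 around 1242 (DN against AP) and 2 to 109 around 11 (CD29 against DN). The first 2 upper ends and that of CD29 against AP come from library size alone. That setting called 864 higher and 260 lower in CD29 against AP, against 464 and 344, 1154 and 267 in DN against AP, against 841 and 401, and 1023 and 140 in AdipoqTraced against CD26, against 436 and 274. Over all tested genes, libraries with the same number did not deviate together, with correlations of -0.028 to 0.049. This does not settle whether the numbers pair them. In every reanalysed group library 1 was the higher of the pair for P4ha1, P4ha2 and Dnajc3, but not for P4ha3. With the replicate block the members called were 28 higher and 1 lower, 25 and 0, and 9 and 0 in the new set, and 0 and 1 in CD29 against AP and 0 and 5 in DN against AP. Over all 18394 genes that block called 980 higher and 827 lower, 973 and 903, and 351 and 204 in the new set. The block called 387 and 313 in CD29 against AP, and 772 and 368 in DN against AP. Among the members described by library it called Xbp1 in AdipoqTraced against CD26 (1.53, adjusted p = 0.0494) and did not call Creb3l1 there (adjusted p = 0.059), Fkbp9 in CD29 against AP (0.0587), Kdelr2 in DN against AP (0.0647) or P3h3 in CD26 against Adipocyte. A fit of the reanalysed set alone called P4ha2 in CD29 and DN against AP and Creb3l1 in CD29 against AP, and DESeq2 also called the last.

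Signs turned among uncalled named members and, for Dnajb9, a called one. With library size alone the values became 0.45 for Dnajb9 (AdipoqTraced against Adipocyte), 0.70, 1.58 and 0.63 for Xbp1, Ddit3 and Hyou1 (CD26 against Adipocyte), 0.033 for P4ha1 (AdipoqTraced against CD26), 0.14 and 0.26 for Xbp1 and Creb3l2 (CD29 against AP), and 0.19, 0.014 and 0.24 for Atf4, Ddit3 and Sdf2l1 (DN against AP). Ddit3 became 0.011 with the replicate block (CD26 against Adipocyte), and Sdf2l1 0.027 with only the libraries of the same set (DN against AP). Leaving out a library in turn moved Ddit3 between -1.45 and 1.0 (AdipoqTraced against Adipocyte), -0.40 and 0.44 (CD26 against Adipocyte) and -1.3 and 1.14 (AdipoqTraced against CD26), and Creb3l2 between -0.018 and 0.85 in the last of these. For AP_CD9High against AP_CD9Low the ranges were -0.16 to 0.033 for Creb3l1, -0.40 to 0.20 for Creb3l2, -0.19 to 0.17 for P4ha1 and -0.062 to 0.20 for P4ha2. For CD29 against AP they were -0.46 to 0.10 for Xbp1 and -0.18 to 0.12 for Creb3l2, and for CD29 against DN -0.056 to 0.34 for P4ha3 and -0.49 to 0.025 for Hspa5. For DN against AP they were -0.19 to 0.15 for Sdf2l1 and -9.58 to 2.70 for P3h2, whose low end is a fitted value against a lone DN library at 0 counts. No value with a turned sign was called.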
